A study of Rattus norvegicus with 6 samples.

Results

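The 10 genes described here encode folding factors of the endoplasmic reticulum (ER): the ER-resident Hsp90 chaperone (Hsp90b1) with its partner-family gene Cnpy2, the calnexin cycle (Calr, Canx, Uggt1 and Ganab), the peptidyl-prolyl isomerases Ppib and Fkbp2, and the calcium-regulated stress proteins Manf and Creld2. They were taken by gene name from the table of normalized counts that keeps multiply aligned reads, in which they are 10 of 32900 features, and all 10 were among the 15579 genes tested (those averaging 5 or more normalized counts over all lines). The expression of these genes was compared between 3 control and 3 PWS lines of INS-1(832/13)::mCherry, a rat insulinoma β-cell line that carries a human INS-neoR and a mouse Ins2-C-mCherry transgene, by sequencing of rRNA-depleted total RNA from untreated cultures in 7.5 mM glucose. Control lines 5-9, 2 and 16 carry a deletion of the domain orthologous to the Prader-Willi syndrome (PWS) region on the silent maternal allele. PWS lines 3, 19-1 and 19-4 carry a deletion of the same domain on both alleles, so both groups share the maternal deletion and differ in the active paternal allele. Per the study, the paternal deletion of line 3 is larger than that of lines 19-1 and 19-4. It starts at an alternate proximal site and holds an insert of E. coli DNA.

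Each line is a clone. Clones 2, 16, 3 and 19 were isolated after a second transfection, that of line 5-9, which used an EGFP control vector for control lines 2 and 16 and the vector for editing for the PWS lines, so that in these clones vector and genotype cannot be told apart. Lines 19-1 and 19-4 are subclones of line 19, so that the 3 PWS lines stand for 2 clones. There was 1 library per line, and nothing in the labels ties a line to more than 1 culture, so p-values measure the spread between these libraries, which may be technical. Recovered counts per line ranged from 26016478 to 36084261, in which a read matching several features is counted for each. With such reads left out, the range was 17530149 to 23022637. Snurf, a gene of the deleted domain, had 3160 to 3992 normalized counts in the control lines and 0 to 3.64 in the PWS lines, and the 36 Snord116 features summed to 1677 to 3043 and to 0. All 11 β-cell markers had more than 3 reads in every line. Their summed level was 599204 to 655598 in the control lines and 328879 to 566804 in the PWS lines, without overlap, and its part in the differences below was not tested. That sum is mostly Ins1, Iapp and Chga, and the 11 markers did not move as one: 9 were lower and 2 higher on average (median log2 fold change -0.12), from Ins2 (-0.99) to Mafa (0.10, a sign that turned with line 5-9, 2 or 19-4 left out). Ins1, Ins2 and Iapp (3 of 11) were lower with p under 0.05 in limma without adjustment, against 5.35% of all tested genes. Ins1 and Iapp (2 of 11) were lower without overlap, against 9.01%, and 0 of 11 passed limma after adjustment. Without line 16 Ins2 was -0.60, and without line 19-4 Ins1 was -0.36 and Iapp -0.39. All 6 exocrine markers, 3 of 4 markers of other islet cells (Gcg was the other) and 4 of the 5 fibroblast, endothelial and immune markers in the table (Cd68 was the other) had at most 3 reads in every line. The summed islet hormones other than insulin and amylin were 2.75 to 19.9 in the control lines and 13.2 to 100.01 in the PWS lines (the highest being Gcg in line 19-4), and the fibroblast, endothelial and immune markers 31.3 to 35.8 and 30.6 to 33.6. In bulk RNA, fewer cells of a type and less RNA per cell cannot be told apart.

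Secretory cells such as β-cells fold proinsulin and other secreted proteins inside the ER, where chaperones hold nascent chains, lectins retain glycoproteins until they are folded, and isomerases turn proline bonds. GRP94, the product of Hsp90b1, is an abundant ATP-driven chaperone of the ER lumen, and calreticulin, encoded by Calr, is at the same time a lectin and a major store of ER calcium. When unfolded proteins accumulate, the transcription factors ATF6 and XBP1 raise many of these genes through promoter elements in which a CCAAT box, bound by NF-Y, lies next to a CCACG box.

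The promoters of the members are shown first because that element, the ER stress response element (ERSE), can be read in them by its letters. Promoters from RefSeq (assembly GRCr8, 250 bases before to 50 after the annotated start) were matched by symbol for 9 of the 10 genes, the exception being Manf. The ERSE was searched as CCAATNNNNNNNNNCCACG on both strands. It was found in 4 of the 9, namely Hsp90b1, Calr, Canx and Creld2, and in 22 of all 33469 promoters (0.0657%). Hsp90b1 was the only tested gene with more than 1 such match. Its matches began 176 and 72 bases before the start, that of Creld2 began 145 bases before it, that of Canx 230 and that of Calr 232. The match was read along the gene's own strand in Canx and in the distal site of Hsp90b1, and along the opposite strand in the others. The 250 bases before the start of these 4 genes are given below on the gene's strand, with the CCAAT and CCACG boxes of each match in capitals (CGTGG and ATTGG where the match is on the opposite strand), and those of Uggt1 are given as the member whose window held neither box. The windows are chr7:23012294-23012543 (minus strand), chr19:40213117-40213366 (plus), chr10:35157858-35158107 (minus), chr7:121789134-121789383 (plus) and chr9:45964141-45964390 (minus).
Hsp90b1: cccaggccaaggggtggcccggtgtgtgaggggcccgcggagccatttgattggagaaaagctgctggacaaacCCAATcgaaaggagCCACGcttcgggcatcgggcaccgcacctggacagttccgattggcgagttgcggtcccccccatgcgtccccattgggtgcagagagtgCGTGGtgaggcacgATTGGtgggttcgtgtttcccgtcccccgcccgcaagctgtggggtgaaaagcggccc
Calr: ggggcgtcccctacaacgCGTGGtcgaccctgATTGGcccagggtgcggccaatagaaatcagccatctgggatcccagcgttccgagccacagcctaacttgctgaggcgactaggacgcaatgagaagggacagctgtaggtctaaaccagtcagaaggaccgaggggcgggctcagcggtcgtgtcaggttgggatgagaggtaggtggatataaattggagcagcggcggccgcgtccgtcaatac
Canx: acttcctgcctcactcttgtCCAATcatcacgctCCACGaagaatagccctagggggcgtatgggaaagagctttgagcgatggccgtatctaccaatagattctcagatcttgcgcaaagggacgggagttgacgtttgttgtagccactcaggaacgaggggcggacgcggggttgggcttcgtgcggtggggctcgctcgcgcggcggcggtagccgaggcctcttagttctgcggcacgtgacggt
Creld2: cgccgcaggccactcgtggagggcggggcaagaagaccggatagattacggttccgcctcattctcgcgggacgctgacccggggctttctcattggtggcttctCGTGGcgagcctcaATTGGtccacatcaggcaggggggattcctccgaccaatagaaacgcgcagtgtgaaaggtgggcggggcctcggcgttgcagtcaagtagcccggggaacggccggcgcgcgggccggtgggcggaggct
Uggt1: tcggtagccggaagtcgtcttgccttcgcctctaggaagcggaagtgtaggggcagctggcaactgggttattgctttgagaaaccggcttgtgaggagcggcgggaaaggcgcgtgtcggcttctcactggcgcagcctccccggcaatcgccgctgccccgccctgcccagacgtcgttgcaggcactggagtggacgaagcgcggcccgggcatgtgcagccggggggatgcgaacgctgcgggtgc

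The single boxes are common, since CCAAT was found in 37.5% and CCACG in 31.6% of all promoters, either strand counted. Both occurred apart from each other in Ganab and Ppib, while Cnpy2 held CCACG alone and Fkbp2 held CCAAT alone. A second form, ERSE-II (ATTGGNCCACG), was found in 0.0508% of all promoters and in none of the 9, and the core of the XBP1 element (TGACGTGG), which holds the CCACG box on its other strand, in 0.595% and in none of the 9. A match is a description of letters in this window, and a window with no match says nothing about the factors.

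All 10 genes were lower on average in the PWS lines (median log2 fold change -0.30, against -0.0028 over all tested genes), but none passed the test across all genes. In limma with Benjamini-Hochberg adjustment, 0 of 10 had an adjusted p-value under 0.05, where 0.257% of all tested genes did. Without adjustment, limma gave 6 of 10 a p-value under 0.05, all lower, against a background of 5.35%. The groups did not overlap in 5 of 10, all lower in the PWS lines, against 9.01%. DESeq2 on the recovered reads called 2 of 10 lower (Creld2 and Ppib), against 0.783%, and edgeR called 0. The study's methods give an adjusted p-value of 0.1 as the cutoff for DESeq2. Hsp90b1 (0.0567) and Manf (0.0750) lay between 0.05 and 0.1 in DESeq2, and the share of all tested genes under 0.1 was not counted. The lowest read count behind any member in any line was 831, so that counting error was at most 3.47% of a value, and 96.5% to 99.98% of the members' reads were also counted under nonunique none, the default counting that leaves out reads aligned to several places or overlapping several features. Read counts are not set against each other between genes, since transcript lengths were not used here.

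**Figure D1:**
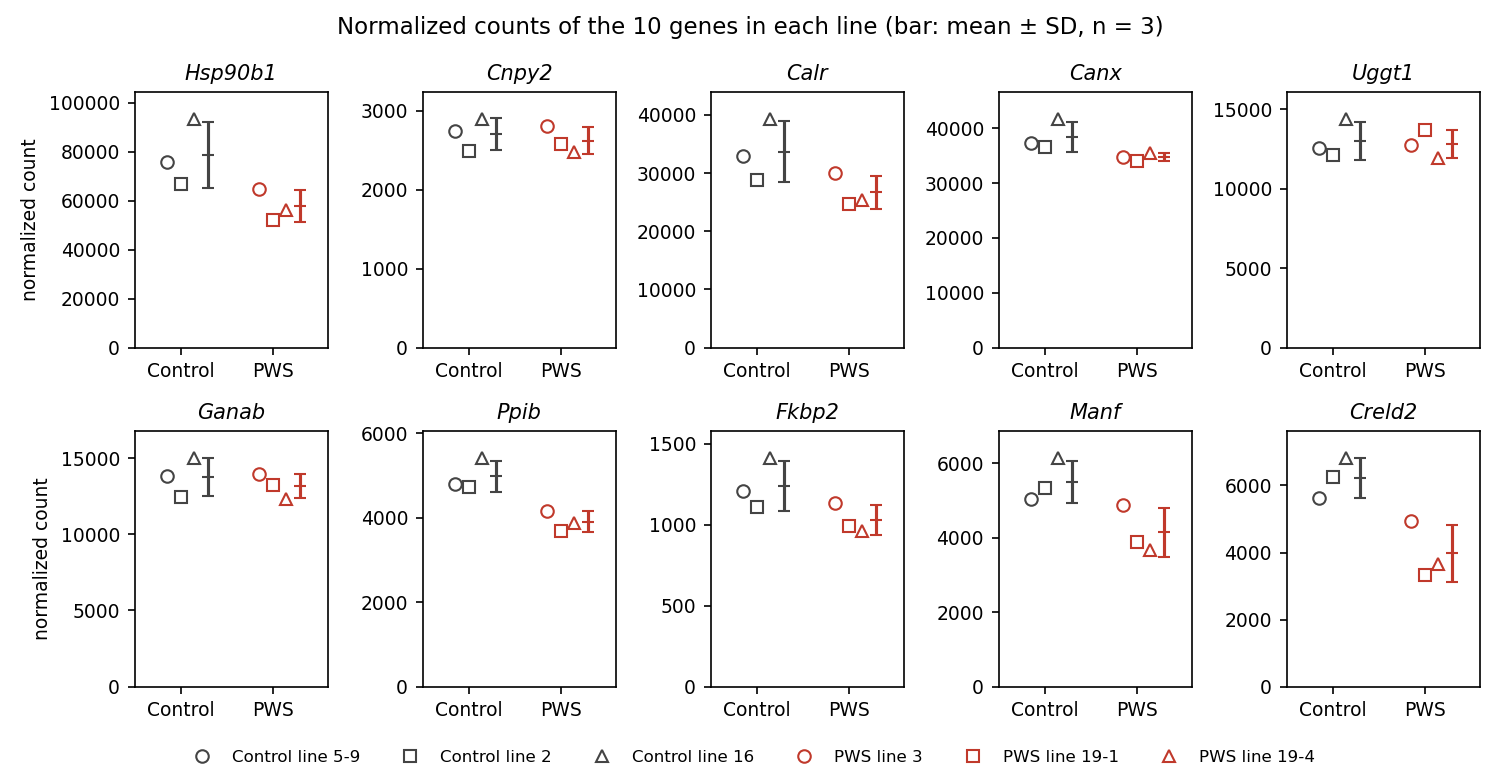
Normalized counts (linear axes from 0) of the 10 genes in each line, with control lines in grey and PWS lines in red. The bar beside each group is the mean ± SD of its 3 lines. Hsp90b1, Canx, Ppib, Manf and Creld2 are the 5 genes whose groups do not overlap, and line 16 is the highest control line in every panel.

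Hsp90b1 (ENSRNOG00000026963) gave normalized counts of 75710 (line 5-9), 67011 (line 2) and 93291 (line 16) among the controls, and of 64970 (line 3), 52120 (line 19-1) and 56288 (line 19-4) among the PWS lines. The lowest control line (2) was close to the highest PWS line (3), and the groups did not overlap. The means were 78671 ± 13387 and 57792 ± 6556 (SD, n = 3 each). The log2 fold change was -0.44 (95% interval -0.77 to -0.11), that is 26.2% lower, with a limma p-value of 0.0151 before and 0.340 after adjustment and an adjusted p-value of 0.0567 in DESeq2. With a line left out, DESeq2 called Hsp90b1 lower without control line 2 (adjusted p = 0.00495) or PWS line 3 (0.0284) and not without any of the other 4.

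Cnpy2 (ENSRNOG00000003549), a saposin-like ER protein of the Canopy family, gave normalized counts of 2749 (line 5-9), 2488 (line 2) and 2890 (line 16) among the controls, and of 2806 (line 3), 2579 (line 19-1) and 2475 (line 19-4) among the PWS lines. These ranges overlapped almost entirely. Its log2 fold change was -0.05 (95% interval -0.23 to 0.14; limma adjusted p = 0.870), and it was called neither by DESeq2 (adjusted p = 0.977) nor by edgeR (0.885).

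The lectins Calr and Canx hold monoglucosylated glycoproteins, Ganab encodes the catalytic subunit of glucosidase II, which removes the glucose and so releases them, and Uggt1 encodes the sensor that adds the glucose back to misfolded clients. Over these 4 genes the median log2 fold change was -0.10, and without control line 16 they ran from -0.21 (Calr) to 0.05 (Uggt1). Calr (ENSRNOG00000003029) gave normalized counts of 32857 (line 5-9), 28856 (line 2) and 39233 (line 16) among the controls, and of 29940 (line 3), 24739 (line 19-1) and 25444 (line 19-4) among the PWS lines. PWS line 3 lay above control line 2, so the groups overlapped. The means were 33648 ± 5234 and 26708 ± 2821 (SD, n = 3 each), with a log2 fold change of -0.33 (95% interval -0.62 to -0.03) and a limma p-value of 0.0328 before and 0.407 after adjustment. The adjusted p-value in DESeq2 was 0.207, and 0.0383 without control line 2. Without control line 16 the log2 fold change of Calr was -0.21 (limma adjusted p = 0.551).

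Canx (ENSRNOG00000003343), the membrane-bound lectin, gave normalized counts of 37303 (line 5-9), 36540 (line 2) and 41618 (line 16) among the controls, and of 34736 (line 3), 34031 (line 19-1) and 35400 (line 19-4) among the PWS lines. Every PWS line was below every control line, and the PWS lines lay within 1.04-fold of each other, the narrowest range of any member in either group. The difference was small, with a log2 fold change of -0.15 (95% interval -0.34 to 0.05; limma adjusted p = 0.550), which became -0.09 without control line 16.

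Uggt1 (ENSRNOG00000014901) gave normalized counts of 12536 (line 5-9), 12136 (line 2) and 14353 (line 16) among the controls, and of 12749 (line 3), 13683 (line 19-1) and 11947 (line 19-4) among the PWS lines. Its groups overlapped, and PWS line 19-1 lay above control lines 5-9 and 2. Its log2 fold change of -0.02 (95% interval -0.23 to 0.18; limma adjusted p = 0.950) was the smallest among the members. Ganab (ENSRNOG00000019724) gave normalized counts of 13826 (line 5-9), 12445 (line 2) and 14977 (line 16) among the controls, and of 13944 (line 3), 13244 (line 19-1) and 12329 (line 19-4) among the PWS lines. Its groups overlapped too, with a log2 fold change of -0.06 (95% interval -0.26 to 0.14; limma adjusted p = 0.845). For both enzymes of the cycle the sign turned without control line 16, to 0.05 for Uggt1 and 0.0042 for Ganab, as it did for Cnpy2 (0.0007).

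Ppib (ENSRNOG00000016781) encodes cyclophilin B, which catalyses proline isomerization in the ER. It gave normalized counts of 4803 (line 5-9), 4730 (line 2) and 5406 (line 16) among the controls, and of 4166 (line 3), 3685 (line 19-1) and 3879 (line 19-4) among the PWS lines. The groups stood clear of each other, with means of 4980 ± 371 and 3910 ± 242 (SD, n = 3 each). The log2 fold change was -0.35 (95% interval -0.53 to -0.17), with a limma p-value of 0.00211 before and 0.258 after adjustment and an adjusted p-value of 0.0227 in DESeq2. DESeq2 no longer called Ppib without control line 5-9 (adjusted p = 0.0782), control line 16 (0.103), PWS line 19-1 (0.208) or PWS line 19-4 (0.174).

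Fkbp2 (ENSRNOG00000021153), an ER isomerase of the FK506-binding family, gave normalized counts of 1205 (line 5-9), 1106 (line 2) and 1408 (line 16) among the controls, and of 1132 (line 3), 994 (line 19-1) and 958 (line 19-4) among the PWS lines. PWS line 3 lay just above control line 2. The log2 fold change was -0.27 (95% interval -0.51 to -0.02), with a limma p-value of 0.0383 before and 0.421 after adjustment and 0.401 in DESeq2 after adjustment. Without control line 16 it was -0.17 (limma adjusted p = 0.576).

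Manf and Creld2 encode soluble proteins of the secretory pathway whose genes are induced by ER stress, depletion of ER calcium included. Manf is a trophic factor that binds the ER chaperone BiP and is known to support β-cell survival, and Creld2 carries EGF-like repeats. Manf (ENSRNOG00000014201) gave normalized counts of 5043 (line 5-9), 5338 (line 2) and 6135 (line 16) among the controls, and of 4881 (line 3), 3884 (line 19-1) and 3666 (line 19-4) among the PWS lines. The groups did not overlap, although PWS line 3 was nearer to control line 5-9 than to the other PWS lines. The log2 fold change was -0.42 (95% interval -0.69 to -0.14), with a limma p-value of 0.00789 before and 0.294 after adjustment and an adjusted p-value of 0.0750 in DESeq2, which called Manf without PWS line 3 (adjusted p = 0.000961).

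Creld2 (ENSRNOG00000004659) gave normalized counts of 5611 (line 5-9), 6255 (line 2) and 6807 (line 16) among the controls, and of 4943 (line 3), 3342 (line 19-1) and 3656 (line 19-4) among the PWS lines. The groups did not overlap, and this was the largest difference among the members, with means of 6224 ± 598 and 3980 ± 848 (SD, n = 3 each). The log2 fold change was -0.66 (95% interval -0.99 to -0.33), with a limma p-value of 0.00156 before and 0.251 after adjustment and an adjusted p-value of 0.00304 in DESeq2. Without PWS line 3, Creld2 passed limma (log2 fold change -0.83, adjusted p = 0.0271). Without PWS line 19-1 or 19-4, DESeq2 no longer called it (adjusted p = 0.0876 and 0.107).

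**Figure D2:**
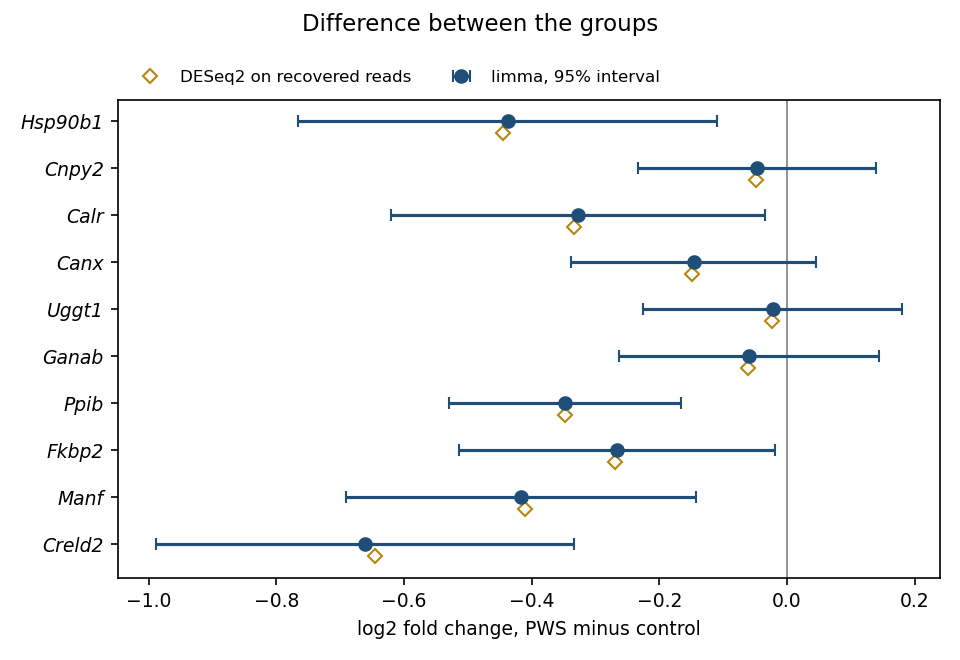
Log2 fold change of each gene, PWS minus control. Filled circles with bars are the limma estimate and its 95% interval, and open diamonds are DESeq2 on the recovered reads. The interval lies below 0 for Hsp90b1, Calr, Ppib, Fkbp2, Manf and Creld2 before adjustment over the 15579 genes.

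The members also varied together among lines of the same group. Line 16 was the highest control line in 10 of 10 members, which it was in 32.8% of all tested genes, and line 2 was the lowest in 8 of 10 (38.5% of all genes). Whether the reduced INS-neoR RNA of line 16 has a part in this was not tested. Among the PWS lines, line 3 was the highest in 8 of 10 (30.7% of all genes). Relative to the control mean on the log2 scale, the members' median was -0.04 in line 5-9, -0.11 in line 2, 0.14 in line 16, -0.15 in line 3, -0.37 in line 19-1 and -0.36 in line 19-4. By this median of 10 genes PWS line 3 was nearer to control line 2 than to the other PWS lines, and lines 19-1 and 19-4 lay together. Over all tested genes the order was another: line 3 correlated with lines 19-1 and 19-4 at r = 0.987 and 0.989, those subclones with each other at 0.986, and line 3 with control lines 5-9, 16 and 2 at 0.985, 0.984 and 0.976. Without control line 16, 7 of 10 members were lower on average and their median log2 fold change was -0.19. With lines 19-1 and 19-4 averaged into 1 sample all 10 were lower and the median was -0.26.

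**Figure D3:**
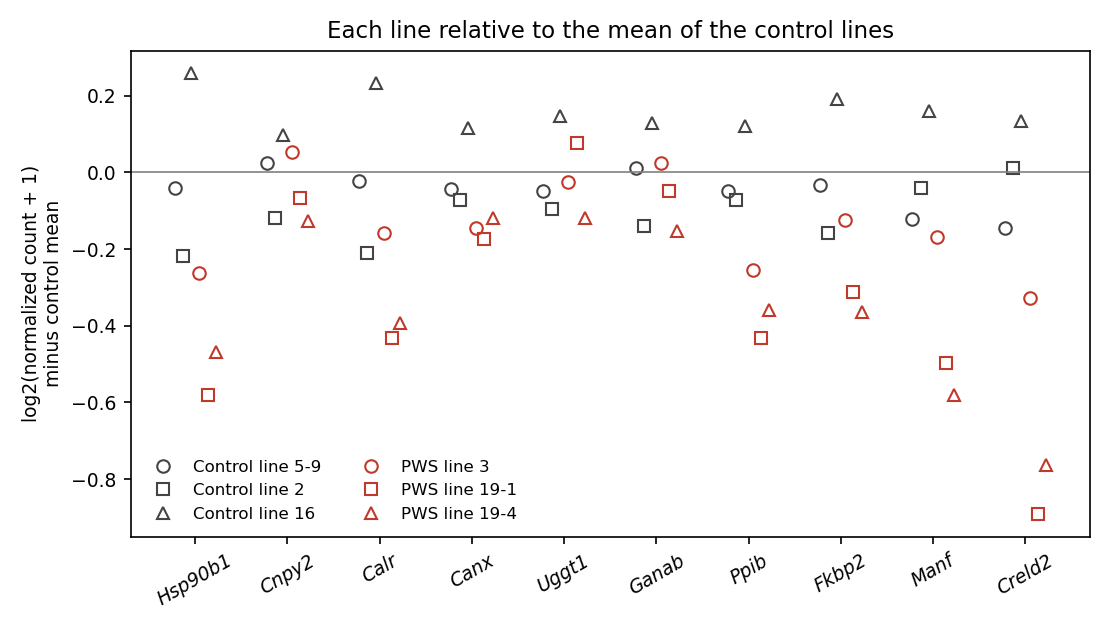
Log2(normalized count + 1) of each gene in each line minus the mean of the 3 control lines, with control lines in grey and PWS lines in red. Control line 16 (grey triangles) lies above 0 for all 10 genes, and PWS lines 19-1 and 19-4 (red squares and triangles) lie lowest for Hsp90b1, Calr, Ppib, Fkbp2, Manf and Creld2.

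Over the 6 lines, the member whose log2 level was most like that of Hsp90b1 was Calr (Pearson r = 0.991, rank 6 of 12737 genes with a mean of at least 50), followed by Fkbp2 (0.974), Ppib (0.967), Canx (0.935), Manf (0.914) and Creld2 (0.900). Ganab (0.734), Cnpy2 (0.732) and Uggt1 (0.412) followed Hsp90b1 less closely. Among all pairs of members, r ran from 0.157 for Uggt1 and Creld2 to 0.991 for Hsp90b1 and Calr, and Ganab and Cnpy2 were a close pair of their own (0.977). The 5 genes most like Hsp90b1 were Derl2 (0.997), of the machinery that returns misfolded proteins to the cytosol, Tmem163 (0.993), Qpct (0.993), which forms N-terminal pyroglutamate on secreted peptides, Rpn1 (0.993), a subunit of the oligosaccharyltransferase, and Inpp5a (0.992), which degrades inositol trisphosphate. These values describe 6 libraries that share their scaling and include the difference between the groups.

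To set members against another gene of their family, the log2 ratio of both genes was taken within each library, which removes the scaling between lines. These 6 ratios were chosen after seeing the data, and with 3 lines a group the exact two-sided permutation test cannot give a p-value under 0.1. Hsp90b1 relative to its cytosolic paralogue Hsp90ab1 was 0.14, 0.01 and 0.51 in control lines 5-9, 2 and 16 and -0.07, -0.24 and -0.26 in PWS lines 3, 19-1 and 19-4. The groups did not overlap, with a difference of -0.41 on the log2 scale (exact p = 0.1, 0.2 after adjustment over the 6 ratios). Hsp90ab1 itself had a log2 fold change of -0.03 (95% interval -0.23 to 0.18; limma adjusted p = 0.941).

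The ratio of Creld2 to Creld1 was 2.41, 2.65 and 2.46 in control lines 5-9, 2 and 16 and 2.01, 1.56 and 1.86 in PWS lines 3, 19-1 and 19-4. It differed by -0.70 without overlap (exact p = 0.1, adjusted 0.2), while Creld1 had a log2 fold change of 0.04 (limma adjusted p = 0.930). Ppib relative to the cytosolic cyclophilin Ppia differed by -0.29 without overlap (exact p = 0.1, adjusted 0.2), but only 53.2% of the count of Ppia was kept under nonunique none counting, so its level is uncertain. The groups overlapped for Fkbp2 relative to Fkbp1a (difference -0.22, exact p = 0.3, adjusted 0.3), for Calr relative to Canx (-0.18, exact p = 0.2, adjusted 0.24) and for Cnpy2 relative to Cnpy3 (0.12, exact p = 0.2, adjusted 0.24). In control lines 5-9, 2 and 16, Fkbp2 to Fkbp1a was -3.08, -3.13 and -2.75, against a PWS mean of -3.21, so line 16 stood apart. In the same lines Cnpy2 to Cnpy3 was 0.76, 0.55 and 0.81, against a PWS mean of 0.83, so line 2 stood apart. No ratio was taken for Manf, whose paralogue Cdnf was below the filter.

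**Figure D4:**
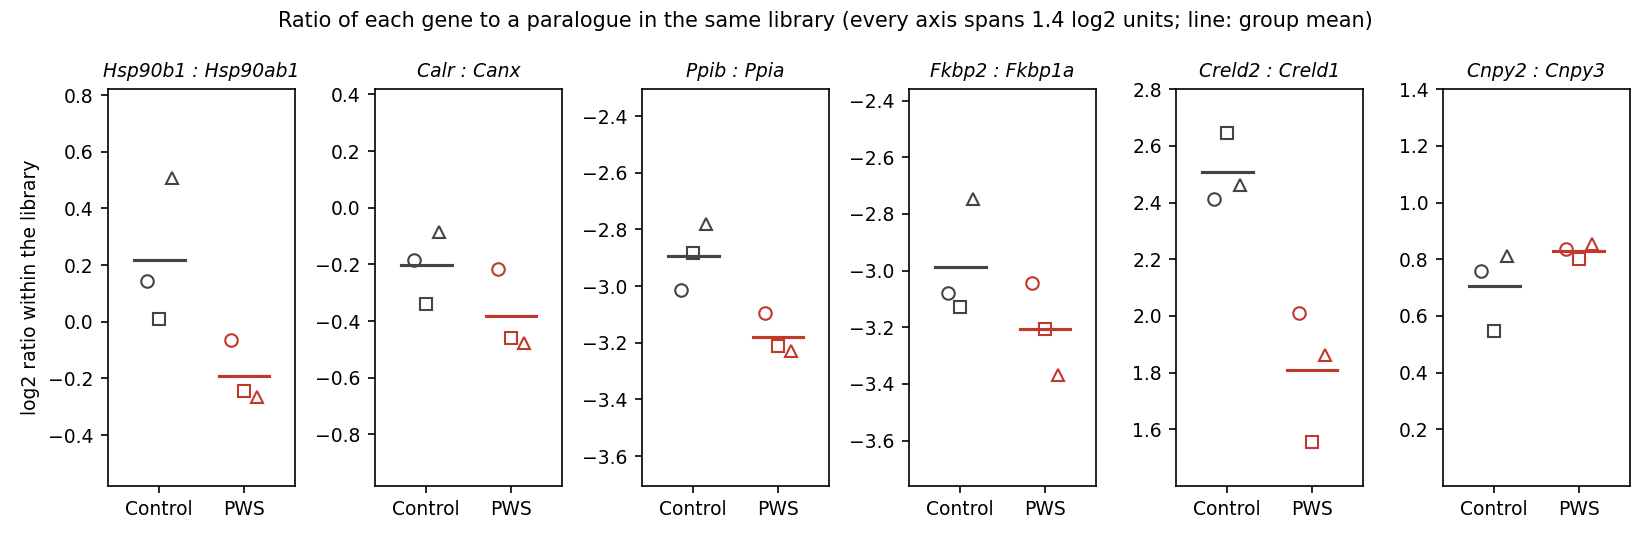
Log2 ratio of a member to its paralogue within each library, with control lines in grey, PWS lines in red and the group mean as a line. Circles are lines 5-9 and 3, squares lines 2 and 19-1, and triangles lines 16 and 19-4, and every axis spans the same range of log2 units. The groups do not overlap for Hsp90b1, Ppib and Creld2.

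Other genes of the same pathways were taken as whole lists, and 0 of the genes in them passed limma after adjustment in either direction. Of 12 other genes of the calnexin cycle and N-glycan trimming, 10 were tested and all 10 were lower on average (median log2 fold change -0.12). They ran from Lman2 (-0.27), a cargo lectin, to Edem3 (-0.01), an ER mannosidase. Of the 10, 1 (Lman2) was lower with a limma p-value under 0.05 without adjustment, against 5.35% of all tested genes. Lman2 gave normalized counts of 8116 (line 5-9), 9634 (line 2) and 8498 (line 16) among the controls, and of 8050 (line 3), 6825 (line 19-1) and 6929 (line 19-4) among the PWS lines, without overlap. Mogs, glucosidase I, kept only 0.00695% of its count under nonunique none counting, and its log2 fold change of -0.03 is uncertain. Without control line 16, Edem3 was 0.08 and Mogs -0.001, so that not all 10 stayed lower, and the median of the list was not recomputed.

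Of 7 other Hsp90, Canopy and GRP94-associated genes 6 were tested, with 5 lower and 1 higher on average (median -0.09). They ran from Os9 (-0.21), a lectin of ER-associated degradation, to Cnpy4 (0.25). With a line left out, Os9 was between -0.33 (without control line 2) and -0.09 (without control line 16), and beyond 1.5 times also without PWS line 3 (-0.31) or 19-4 (-0.11). Cnpy4 was 0.13 without control line 2 and 0.15 without PWS line 19-4. In this list 1 of 6 (Cnpy3, -0.17, a partner of GRP94 in the folding of Toll-like receptors) had a limma p-value under 0.05 without adjustment. The share of all tested genes lower at that level was 5.35%. Only 2 of 6 other ER isomerases were tested, with log2 fold changes of -0.56 for Fkbp14 (-0.36 without control line 16) and 0.07 for Fkbp7 (between -0.04 and 0.23 with a line left out), both at low level (21 to 52 and 40 to 58 normalized counts). Of the 8 isomerases of the cytosol, nucleus and mitochondria, 6 were lower and 2 higher on average, from Ppih (-0.28, -0.05 without control line 2 and -0.42 without control line 16) to Ppif (0.17, and 0.10 without control line 5-9), with a median of -0.03 and 0 of 8 under 0.05 in limma without adjustment.

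Genes of ER calcium handling, the pumps, channels and calcium-binding proteins beside which calreticulin works, showed no common direction. Of 13 tested, 7 were lower and 6 higher on average (median -0.02), from Calu (-0.24, and -0.12 without PWS line 19-1) to Itpr2 (0.51, and 0.30 without PWS line 19-1), and 2 of 13 (Itpr1 and Itpr2, both inositol trisphosphate receptors) had a limma p-value under 0.05 without adjustment, both higher, as did 935 of all 15579 tested genes (6%) in that direction. Itpr1 gave normalized counts of 6589 (line 5-9), 6123 (line 2) and 5957 (line 16) among the controls, and of 7015 (line 3), 7783 (line 19-1) and 7292 (line 19-4) among the PWS lines, without overlap (log2 fold change 0.24, limma adjusted p = 0.305). The 3 KDEL receptors, which return soluble ER proteins from the Golgi, ran from Kdelr3 (-0.60, without overlap, limma adjusted p = 0.373, and -0.36 without control line 16) to Kdelr1 (-0.01), and the level of Kdelr3 was 197 to 370 normalized counts in the control and 158 to 195 in the PWS lines.

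For comparison, 7 other ER chaperone genes among those the study names, a list the study chose on the same lines and so no independent evidence, were all lower on average, from Sdf2l1 (-0.95) to Dnajc3 (-0.47). Their median was -0.55, and DESeq2 called 6 of 7 lower, against 0.783% of all tested genes. Pdia3, a disulfide isomerase of the calnexin cycle that the study also names and that is counted with the cycle above, had a log2 fold change of -0.19 with overlapping groups (limma adjusted p = 0.564), and -0.07 without control line 16. With it the median of the 8 was -0.52 and DESeq2 called 6 of 8. The estimate for Creld2 lay within the range of the 7, those for Hsp90b1 and Manf just outside it, and those for Canx, Ganab, Uggt1 and Cnpy2 were nearer to 0. The study also listed Hsp90b1 and Creld2 among the ER chaperones lowered in its RNA-seq. By RT-droplet digital PCR on independent biological replicates of these lines it found RNA of Hsp90b1, Ppib and Creld2 lower. It found GRP94 lower by western blot, and GRP94, CRELD2, MANF and, modestly, PPIB lower by mass spectrometry of glucose-stimulated cells.

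Across the tested genes, 26 had an ERSE or ERSE-II match in their RefSeq promoter. Of these, 21 were lower on average (median log2 fold change -0.30, against -0.0092 for the 9776 tested genes with a promoter in the table), and the groups did not overlap, with PWS lower, in 11 of 26 (946 of the 9776). None of the 26 passed limma after adjustment, limma gave 13 a lower level with p under 0.05 without adjustment (560 of the 9776), and DESeq2 called 5 lower (65 of the 9776). Leaving out the 4 members, 17 of 22 were lower on average (median -0.25), 8 of 22 without overlap, and DESeq2 called 4: Hspa5, Hyou1, Dnajb11 and Dnajc3, which are also among the 7 chaperone genes above. The values ran from Derl3 (-0.90), an ER degradation gene with no read left under nonunique none counting, to Ttll10 (0.64), a tubulin-family ligase with 11 to 27 normalized counts (0.96 without PWS line 3). Xbp1, which encodes a factor that itself binds such elements, had a match and a log2 fold change of -0.08 (limma adjusted p = 0.739), which was -0.15 without line 5-9 and -0.04 without line 2 or line 19-4.

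Among the members, the 4 with a match had a median log2 fold change of -0.38 and the 5 with a promoter and no match -0.06. In all lines, Canx had a match and -0.15, Ppib had none and -0.35, and Fkbp2 none and -0.27. Manf (-0.42), without a promoter in the table, is in neither group. Whether the element had a part in any of these differences was not tested. RefSeq promoters were matched by symbol for 62.8% of the tested genes, so that genes with a match may be missing from this count.

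**Figure D5:**
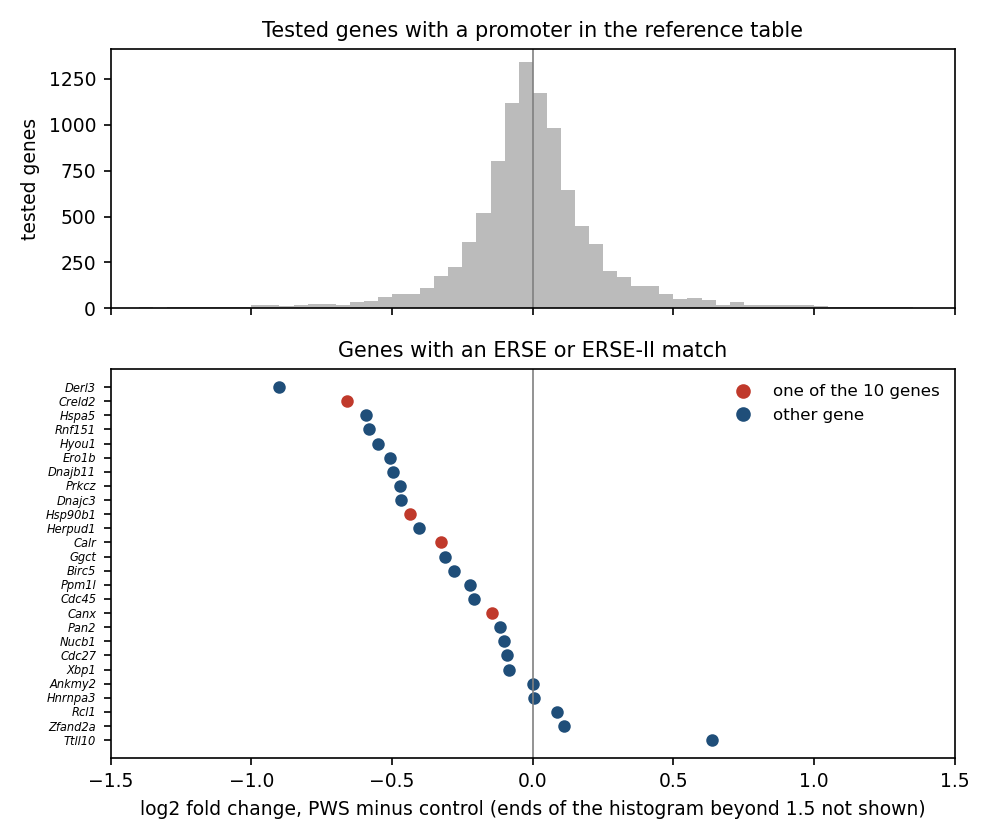
Top, histogram of the log2 fold changes (PWS minus control) of the 9776 tested genes with a RefSeq promoter. Bottom, the 26 of them with an ERSE or ERSE-II match, with the 4 members in red, 21 of which lie below 0.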

How the data were processed

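Per the labels and the study's methods, total RNA depleted of rRNA was sequenced and after adapter trimming (cutadapt) the authors mapped reads with STAR 2.7.0e to the Ensembl rat genome, extended by the transgenes, and quantified genes with HTSeq 0.11.2 or RSEM 1.3.1. The authors deposited, for each counting, a signal per line: counts divided by the size factors of DESeq2 (normalized counts here). Their columns of fold changes and p-values were not used, and no per-sample column was left without a line. Nonunique all counting, used for the main values, assigns a read that aligns to several places or overlaps several features to each of them, and nonunique none leaves such reads out. Whole reads were recovered for 100% of the values above 0 in both HTSeq tables (tolerance 0.001 reads), and a count of 0 allows up to 3 reads. That floor covers counting error only, whereas the 95% intervals of fold changes come from the spread between lines.

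Control and PWS lines were compared with limma 3.58.1 under R 4.3.3 (trended eBayes, two-sided) on log2(normalized count + 1) in the 15579 genes that averaged 5 or more, with Benjamini-Hochberg adjustment over all of them at 0.05. On the recovered reads, edgeR 4.0.16 called 32 genes and DESeq2 1.42.0 called 228, against 40 in limma. Fold changes are on the log2(value + 1) scale. The fit was tested on simulated data. Ratios were compared by an exact permutation test (scipy 1.17.1). RefSeq promoters (GRCr8) are of another assembly than the files, so no position was carried over. The members, gene lists and tests were chosen with earlier results of these data known. Genes named are the 10 members, the highest and lowest tested gene of each list, the 5 most like Hsp90b1, and Snurf and Snord116, while Cnpy3, Itpr1, Mogs, Pdia3, Gcg, Cd68, the β-cell markers, the paralogues and the genes with an ERSE match other than the members were named after their values were seen. Protein tails and levels per coding length, planned at first, were not used here. Alternatives were other pseudocounts, filters, scaling, tests and countings, a block for the replicate number, the mean of both subclones of line 19, and each line left out.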

Additional observations from a re-analysis of the deposited data

How the results depend on the processing

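Over the 10 genes and 18 alternative settings, 173 of 180 fold changes kept their direction and their side of the threshold, 3 newly passed it and 4 changed sign. The sign changes were Cnpy2 (0.0007), Uggt1 (0.0505) and Ganab (0.0042) without control line 16, and Uggt1 (0.0258) without PWS line 19-4, within ranges of -0.11 to 0.0007, -0.072 to 0.0505 and -0.13 to 0.0042 for Cnpy2, Uggt1 and Ganab with each line left out. Those passing were Creld2 and Ppib in DESeq2 (2 of 10 members) and Creld2 in limma without PWS line 3. Leaving out each line in turn gave 0 to 1 members passing limma and 33 to 55 genes over the whole table, where 40 passed in all lines. DESeq2 with each line left out in turn, added after seeing the data, called 0 to 4 members, and 0.295% to 1.11% of all tested genes lower. It called 4 members without control line 2 (0.507% of all genes) and 4 without PWS line 3 (1.11%). The whole-table count was 9 with a mean of at least 50, 228 in DESeq2, 16 with nonunique none counting and 12 with RSEM, and the cause was not tested. With the replicate number as a block, 36 genes and 0 members passed, against 40 and 0 without it. Deviations of same-numbered lines from their group means correlated at 0.00345, 0.0467 and 0.00513, and not every line correlated best with its own number, so the lines share only a number. The median of the 26 genes with an ERSE or ERSE-II match ran from -0.38 to -0.25 over all settings, with 24 of them left under the filter of at least 50 and 25 under nonunique none counting. Of the other genes named, Edem3, Kdelr1, Creld1, Hsp90ab1, Fkbp7, Mafa and Chga turned sign in 1 or more of the limma fits with a line left out. The 6 libraries limit precision more than depth does: counting error was at most 3.47% of a member's value, while the 95% intervals of Canx, Uggt1, Ganab and Cnpy2 include 0 and a change in either direction.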
